A study of Mus musculus with 6 samples.

Results

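Inhbe encodes the inhibin beta E subunit, a ligand chain of the activin branch of the TGF-beta superfamily that is made almost wholly by hepatocytes. It is described here with the other inhibin beta subunit genes Inhba, Inhbb and Inhbc, the activin antagonists Fst and Fstl3, and the stress hormones Fgf21 and Gdf15. The 8 genes were found by name among the 54532 genes of the deposited table, and each name occurred once. They were chosen by way of Inhbe and its family after the difference between IRF8-cKO and WT livers in these same libraries was known. Values of that contrast are therefore a description of the 8 genes, given without a test.

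Activins are dimers of beta subunits, cut from larger precursors and secreted. They bind a type II receptor (ACVR2A or ACVR2B) that recruits a type I receptor (ACVR1B, or ACVR1C in fat and a few other tissues) and signals through SMAD2 and SMAD3. Follistatin and follistatin-like 3 wrap around activins in the extracellular space and block receptor binding. FGF21 and GDF15 are hormones that stressed liver releases. FGF21 needs the co-receptor beta-klotho beside an FGF receptor, and GDF15 acts through GFRAL in the hindbrain. In cultured cells and mouse liver, transcription of Inhbe, Fgf21 and Gdf15 is known to be raised by arms of the unfolded protein and integrated stress responses, in which the factors ATF4 and CHOP take part.

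The study compared 3 libraries of C57bl/6 mice that lack interferon regulatory factor 8 (IRF8) in hepatocytes (IRF8-cKO-71, IRF8-cKO-88, IRF8-cKO-106) with 3 libraries of wild-type C57bl/6 mice (WT-14, WT-44 and WT-77). All livers had 1 h of warm ischemia, in which the blood supply of a lobe is clamped, and 12 h of reperfusion, and RNA came from the ischemic lobe. Neither the Cre driver nor the ages and sexes are given in the sources used here, which cells lost Irf8 cannot be seen in bulk counts, and no uninjured liver was measured. The labels do not say that the numbered libraries are separate animals, so the p-values reflect variation among these 6 samples, which may be technical.

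The libraries held 14758237 to 16805830 counted reads. Irf8 itself stood at 5.67 CPM (normalised counts, scaled to the composition-adjusted library total) in IRF8-cKO-71, 6.72 in IRF8-cKO-88 and 4.17 in IRF8-cKO-106, against 9.32 CPM in WT-14, 9.50 in WT-44 and 10.3 in WT-77 (log2 fold change -0.81, SE 0.33; edgeR adjusted p = 0.174). Albumin, the defining hepatocyte transcript, stood at 46924 to 58879 CPM in IRF8-cKO and 61800 to 88708 CPM in WT livers, and all 14 hepatocyte markers found in the table were expressed. Their log2 CPM, centred on each gene and averaged, was lowest in IRF8-cKO-106 (-0.76), against -0.11 to 0.45 in the other 5. Across genes, which are not independent replicates, log2 CPM of IRF8-cKO-88 had a Pearson correlation of 0.905 with IRF8-cKO-71, 0.944 with IRF8-cKO-106 and 0.922 to 0.945 with the WT libraries. IRF8-cKO-71 correlated least with the WT libraries, at 0.852 to 0.885. Of 11 tested neutrophil markers 5 were lower in IRF8-cKO, of 14 Kupffer cell and macrophage markers 0 passed with 11 at positive values, and of 9 tested cholangiocyte markers 0 passed with 8 at negative values (summed level 152 to 269 CPM in IRF8-cKO and 475 to 973 CPM in WT livers). CPM of 7 of the 9 cholangiocyte markers lay lower in IRF8-cKO without overlap, where 14.5% of all tested genes did. Of 8 tested platelet and red cell markers 1 fell, Hba-a2, and all 8 had negative values. CPM lay lower without overlap for 7 of these. The list summed to 105 to 158 CPM in IRF8-cKO and 232 to 334 CPM in WT livers. Their part in the levels of Inhbe and its family was not tested. In bulk tissue, fewer cells of a type and less RNA per cell cannot be told apart. In edgeR's quasi-likelihood test, 182 of 13134 tested genes passed an adjusted p of 0.05, 59 higher and 123 lower in IRF8-cKO; with library totals alone as the scale it was 39 higher and 43 lower.

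The promoters of Inhbe and Fgf21 shared a sequence that no other window of these genes held. RefSeq promoter windows of 300 bases across the annotated start (GRCm38.p6) were at hand for 7 of the 8 genes. They were searched on both strands for TTGCATCA, the core to which ATF4 binds together with a C/EBP partner. It occurs in 0.895% of all 32851 windows. The match began 181 bases before the annotated start of Inhbe and 139 bases before that of Fgf21, on the strand of the gene in both. The 30 bases around each match are shown with the core in capitals, since they are the shared feature of a gene that was higher and a gene that was not in IRF8-cKO. The Inhbe stretch lies at chr10:127352011-127352040 and the Fgf21 stretch at chr7:45615611-45615640, both on the minus strand.
Inhbe: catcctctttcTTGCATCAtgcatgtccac
Fgf21: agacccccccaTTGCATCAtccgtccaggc
The looser form TGATGNAA, of which this core is a case when read on the opposite strand, is in 3.97% of windows and matched only at these same positions. The SMAD palindrome GTCTAGAC (0.213% of windows), the CRE TGACGTCA (1.79%), the AP-1 motif TGANTCA (7.81%) and the PPAR element of paired AGGTCA with 1 base between (0.0396%) had no match in the windows of the 7 genes. The E-box CACGTG, present in 7.15% of windows, matched in Fgf21 and in 1 of the 2 Gdf15 windows. A match describes letters and shows no binding.

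Inhbe was higher in every IRF8-cKO library than in every WT library. It stood at 104 CPM in IRF8-cKO-71, 199 in IRF8-cKO-88 and 38.5 in IRF8-cKO-106, against 14.1 CPM in WT-14, 12.6 in WT-44 and 7.91 in WT-77. The WT libraries lay within 1.78-fold of each other, while the IRF8-cKO libraries spread over 5.18-fold, so the size of the difference varied far more in IRF8-cKO than the level did in WT livers. The means were 114 ± 80.8 CPM in IRF8-cKO and 11.5 ± 3.23 CPM in WT livers (SD, n = 3 each), a log2 fold change of 3.30 (SE 0.56). Inhbe (ENSMUSG00000047492) lies on chromosome 10 from 127348857 to 127354411 on the minus strand (mm10). These counts rest on 1680 reads in IRF8-cKO-71, 3228 in IRF8-cKO-88 and 830 in IRF8-cKO-106 and on 230 reads in WT-14, 146 in WT-44 and 119 in WT-77. Without IRF8-cKO-88, the library with the highest level, the log2 fold change was 2.63.

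**Figure D1:**
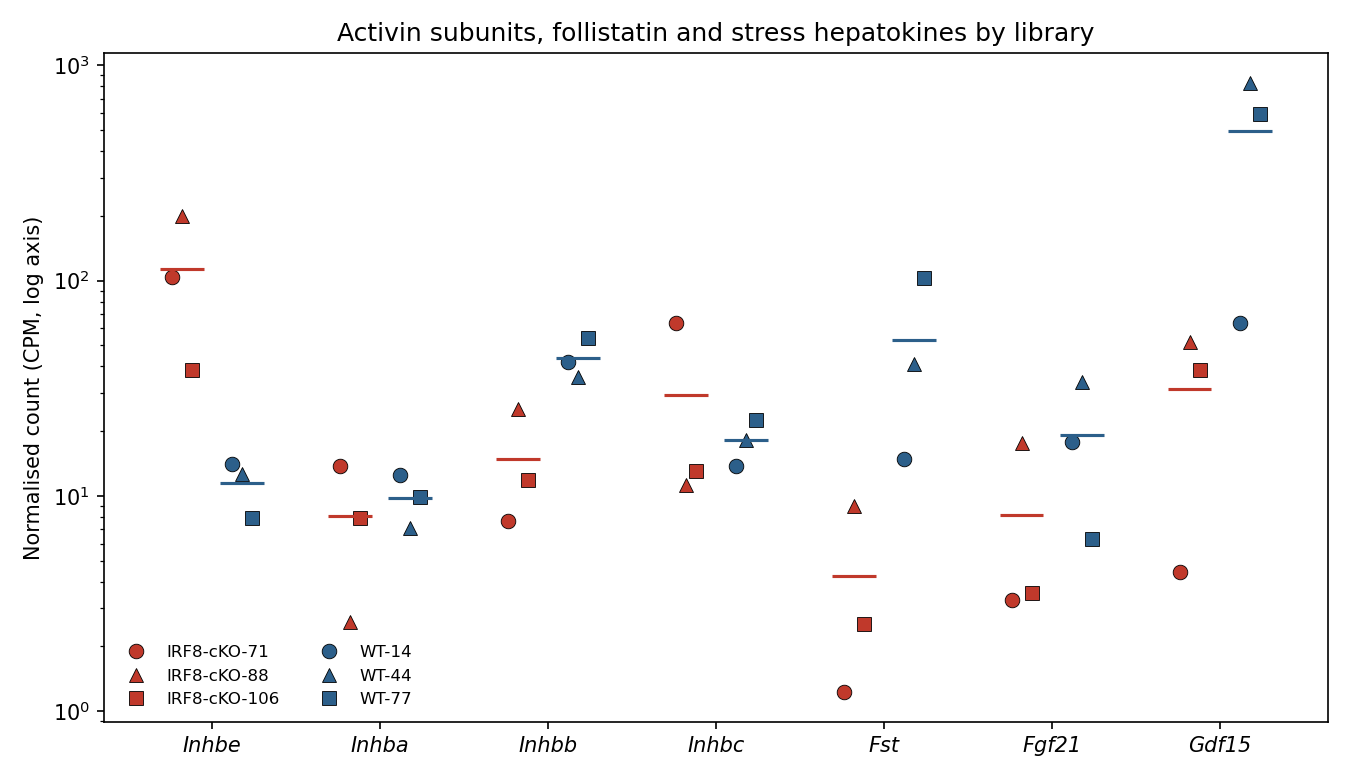
Normalised counts (CPM, log axis) of the 7 genes that passed the low-count filter, with IRF8-cKO libraries in red on the left and WT libraries in blue on the right of each gene. Points are libraries, told apart by shape, and lines are group means of 3. Inhbe at 38.5 CPM or more in IRF8-cKO lies above its highest WT value of 14.1 CPM, while Inhbb, Fst and Gdf15 lie below all their WT values.

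Inhbc, the other beta subunit gene with a liver-restricted pattern, stands 1911 bases from Inhbe on the same strand (ENSMUSG00000025405, chromosome 10, 127356322 to 127370431). It did not share the difference. Inhbc stood at 63.6 CPM in IRF8-cKO-71, 11.3 in IRF8-cKO-88 and 13.1 in IRF8-cKO-106, against 13.7 CPM in WT-14, 18.1 in WT-44 and 22.5 in WT-77. The groups overlapped: IRF8-cKO-71 was the highest of all 6 libraries and IRF8-cKO-88, the library with most Inhbe, was the lowest. The log2 fold change of Inhbc was 0.69 (SE 0.63), and it was -0.56 without IRF8-cKO-71. Of 8 tested genes within 100000 bases of Inhbe, Inhbc included, 0 passed the edgeR test. The others were Kif5a (-0.82), Arhgap9 (-0.36), R3hdm2 (0.18), Dctn2 (0.21), Mars (0.72), Mbd6 (0.86) and Ddit3, in log2 fold change. Ddit3, which encodes the stress factor CHOP and lies 52569 bases from Inhbe, stood at 0.40 on that scale (SE 0.64, adjusted p = 0.730).

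Inhbb, whose product forms activin B, was lower in every IRF8-cKO library. It stood at 7.65 CPM in IRF8-cKO-71, 25.2 in IRF8-cKO-88 and 11.8 in IRF8-cKO-106, against 41.7 CPM in WT-14, 35.6 in WT-44 and 54.1 in WT-77. The log2 fold change of Inhbb (ENSMUSG00000037035, chromosome 1, 119415465 to 119422248, minus strand) was -1.56 (SE 0.42). Inhba, whose product forms activin A, a cytokine of injured and inflamed tissue, overlapped between the groups at 13.8, 2.59 and 7.88 CPM in the same IRF8-cKO libraries, against 12.4, 7.08 and 9.90 CPM in the WT libraries. Its log2 fold change was -0.28 (SE 0.52), within the spread of the IRF8-cKO libraries, and turned to 0.14 without IRF8-cKO-88. Inhba (ENSMUSG00000041324) lies on chromosome 13 from 16011851 to 16031621 on the plus strand. Inha, the alpha subunit that turns activins into inhibins, had at most 2 reads in any library.

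Inhbe took a larger and Inhbb a smaller share of the beta subunit mRNAs in each IRF8-cKO library than in any WT library. Counted per kilobase of gene length, Inhbe made up 33.8% of the 4 beta subunit transcripts in IRF8-cKO-71, 75.1% in IRF8-cKO-88 and 39.6% in IRF8-cKO-106, against 12.2% in WT-14, 11.0% in WT-44 and 5.33% in WT-77. Inhbb was 3.12%, 11.9% and 15.2% in the same IRF8-cKO libraries, against 45.0%, 38.7% and 45.7% in the WT libraries. Inhbc and Inhbb made up most of the pool in each WT library. With the deposited lengths the leading subunit in IRF8-cKO was Inhbc in IRF8-cKO-71 and Inhbe in IRF8-cKO-88, and in IRF8-cKO-106 Inhbe and Inhbc stood close together (39.6% and 38.5%). The summed level of the 4 genes was 57.7 CPM per kb in IRF8-cKO-71, 49.8 in IRF8-cKO-88 and 18.3 in IRF8-cKO-106, against 21.8 CPM per kb in WT-14, 21.6 in WT-44 and 27.9 in WT-77. At this gene length and scaling IRF8-cKO-106 lay below the 3 WT libraries. Its composition factor was the highest at 1.32, and that of WT-44 the lowest at 0.786. The order with library totals as the scale was not examined.

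**Figure D2:**
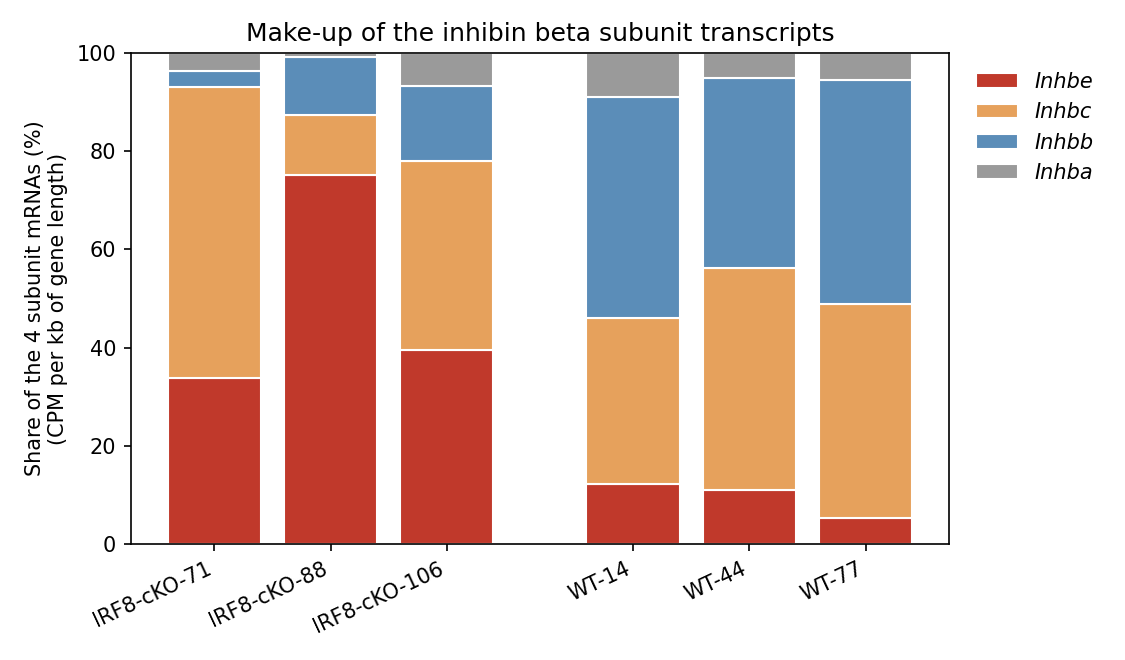
Share of each inhibin beta subunit gene in the summed level of Inhbe, Inhbc, Inhbb and Inhba, in percent of CPM per kb of gene length, for the 3 IRF8-cKO libraries on the left and the 3 WT libraries on the right. Inhbe takes 33.8% to 75.1% in IRF8-cKO and 5.33% to 12.2% in WT livers.

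The length of Inhbe bears on these shares. The deposited table gives Inhbe 5319 bases, and its start lies 2563 bases upstream of the RefSeq start, whose whole span is 2447 bases. The promoter window named above therefore falls inside the deposited gene. The RefSeq span counts introns, whereas the deposited lengths, kept below for the other subunit genes, count exons only. With the RefSeq span as the length, an alternative chosen after seeing the data, Inhbe took 52.5% of the beta subunit pool in IRF8-cKO-71, 86.8% in IRF8-cKO-88 and 58.7% in IRF8-cKO-106, against 23.1% in WT-14, 21.1% in WT-44 and 10.9% in WT-77. Inhbe then led in each IRF8-cKO library, with Inhbc at 42.6% in IRF8-cKO-71, 6.48% in IRF8-cKO-88 and 26.3% in IRF8-cKO-106. The summed level with that length was 80.4 CPM per kb in IRF8-cKO-71, 93.6 in IRF8-cKO-88 and 26.7 in IRF8-cKO-106, against 24.9 CPM per kb in WT-14, 24.4 in WT-44 and 29.6 in WT-77, so IRF8-cKO-106 then lay above WT-14 and WT-44. Genes that overlap Inhbe, Inhbc, Inhba, Fst or Fstl3 had at most 3 reads in any library.

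Fst, which encodes follistatin, the secreted inhibitor of activins, was lower in every IRF8-cKO library. It stood at 1.23 CPM in IRF8-cKO-71, 9.01 in IRF8-cKO-88 and 2.55 in IRF8-cKO-106, against 14.83 CPM in WT-14, 40.9 in WT-44 and 103 in WT-77. Both groups were wide, 7.30-fold in IRF8-cKO and 6.95-fold in WT livers, with WT-77 far above the other WT libraries. The log2 fold change of Fst was -3.64 (SE 0.87), and it was -2.71 without WT-77 and -4.79 without IRF8-cKO-88. Per kilobase, Fst over the sum of Inhba and Inhbb was 0.0681 in IRF8-cKO-71, 0.310 in IRF8-cKO-88 and 0.139 in IRF8-cKO-106, against 0.275 in WT-14, 0.942 in WT-44 and 1.57 in WT-77. On that ratio the groups overlapped, IRF8-cKO-88 lying above WT-14. Fstl3, the second follistatin-type antagonist, was near the limit of detection: it had 0 reads in IRF8-cKO-71, 0 in IRF8-cKO-88 and 10 in IRF8-cKO-106, and 7 reads in WT-14, 0 in WT-44 and 13 in WT-77. A count of 0 allows up to 0.185 CPM in IRF8-cKO-71, 0.185 CPM in IRF8-cKO-88 and 0.259 CPM in WT-44, and covers counting error only. Fstl3 did not pass the low-count filter, and the other 7 genes did. Fst (ENSMUSG00000021765) lies on chromosome 13 from 114452290 to 114458951 on the minus strand, and Fstl3 (ENSMUSG00000020325) on chromosome 10 from 79777272 to 79782630 on the plus strand.

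Gdf15, the stress hormone that reduces appetite through the hindbrain, showed the lowest log2 fold change of the 7 tested genes. It stood at 4.44 CPM in IRF8-cKO-71, 51.8 in IRF8-cKO-88 and 38.3 in IRF8-cKO-106, against 63.9 CPM in WT-14, 825 in WT-44 and 593 in WT-77. The groups did not overlap, but WT-14 lay close to IRF8-cKO-88 and far below the other WT libraries, with 1042 reads where WT-44 had 9560 and WT-77 had 8927. The log2 fold change of Gdf15 was -3.97 (SE 1.07), and its largest shift with a library left out was to -3.40, without WT-44. Fgf21, the fasting and stress hormone, overlapped between the groups. It stood at 3.27 CPM in IRF8-cKO-71, 17.7 in IRF8-cKO-88 and 3.52 in IRF8-cKO-106, against 17.7 CPM in WT-14, 33.8 in WT-44 and 6.31 in WT-77. Its log2 fold change was -1.24 (SE 0.77), and it was -2.49 without IRF8-cKO-88 and -0.56 without WT-44. Gdf15 (ENSMUSG00000038508) lies on chromosome 8 from 70629393 to 70632456 and Fgf21 (ENSMUSG00000030827) on chromosome 7 from 45613886 to 45615490, both on the minus strand.

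**Figure D3:**
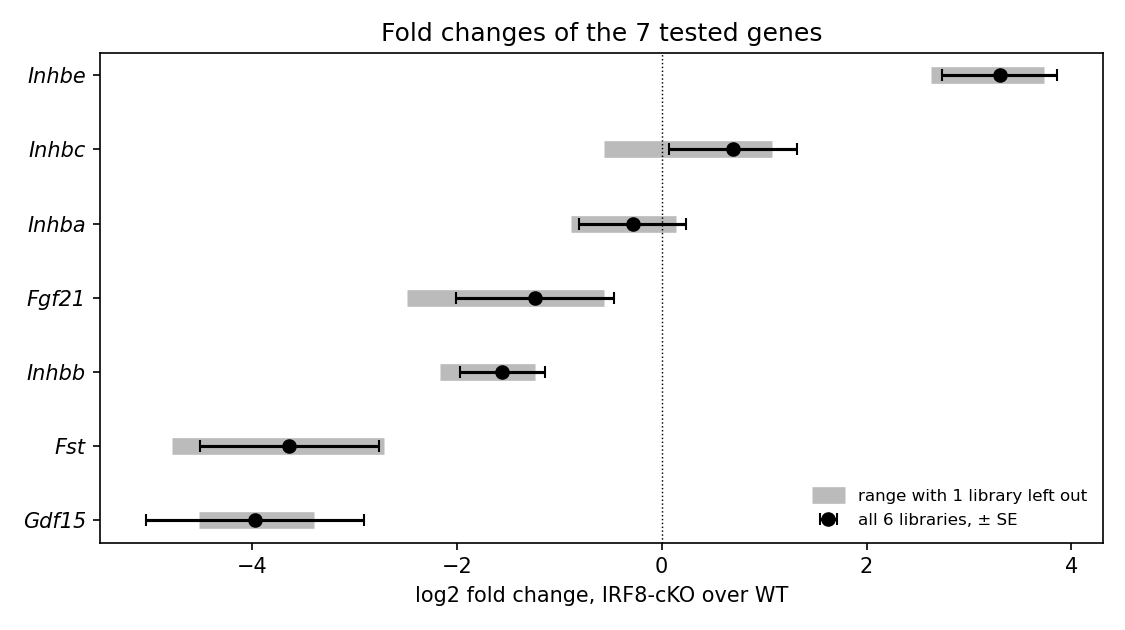
Log2 fold change (IRF8-cKO over WT) of the 7 tested genes from the edgeR fit on all 6 libraries, with its standard error, and in grey the range of the value when each library is left out in turn. Inhbe stays between 2.63 and 3.73 and Gdf15 between -4.52 and -3.40, while Inhba and Inhbc cross 0.

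In the fit over all genes, 1 of the 7 tested genes, Inhbe, passed the threshold, where 1.39% of all tested genes did (0.449% higher and 0.937% lower). DESeq2 called 4 of them, Inhbe, Inhbb, Fst and Gdf15, where it called 11.3% of all genes. Without the low-count filter 2 were called, Inhbe and Inhbb, against 7.15% of all genes, and without IRF8-cKO-88 4 were called, Inhbe, Inhbb, Fst and Fgf21, against 8.83%. CPM did not overlap between the groups for 4 of the 7, Inhbe higher and Inhbb, Fst and Gdf15 lower in IRF8-cKO, against 28.9% of all tested genes (14.4% higher and 14.5% lower). Since the genes were chosen on this contrast, these counts describe them and support nothing further. Inhbe was no longer called without IRF8-cKO-71, WT-14, WT-44 or WT-77, where its log2 fold change lay between 3.08 and 3.47. Without WT-44 the test called 1 gene in all and without WT-77 it called 0 (1988 genes at an unadjusted p under 0.05).

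Ranked by level per kilobase, the genes changed places. In IRF8-cKO livers the order of means was Inhbe (21.4 ± 15.2 CPM per kb), Gdf15 (17.0 ± 13.2), Inhbc (15.8 ± 15.99), Fgf21 (8.59 ± 8.69), Inhbb (3.50 ± 2.16), Inhba (1.26 ± 0.874), Fst (0.929 ± 0.907) and Fstl3 (SD, n = 3). From Inhbe to Fst each gene overlapped its neighbour in this order over the 3 libraries. In WT livers the order was Gdf15 (267 ± 211 CPM per kb), Fgf21 (20.3 ± 14.5), Fst (11.5 ± 9.88), Inhbb (10.3 ± 2.22), Inhbc (9.75 ± 2.37), Inhbe (2.17 ± 0.607), Inhba (1.54 ± 0.420) and Fstl3. There neighbours overlapped from Gdf15 down to Inhbc, and Inhbe overlapped Inhba, but Inhbe lay wholly below Inhbc. Inhbe stood above 83.3% to 95.7% of protein-coding genes by level per kilobase in IRF8-cKO livers and above 63.7% to 70.8% in WT livers. With the RefSeq span as its length, Inhbe averaged 46.4 CPM per kb in IRF8-cKO and 4.71 CPM per kb in WT livers, which leaves its place in either order.

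The libraries of the IRF8-cKO group did not keep 1 order across the genes. IRF8-cKO-88 was the highest of the 3 for Inhbe, Inhbb, Fst, Fgf21 and Gdf15 and the lowest for Inhba and Inhbc. IRF8-cKO-71 was the lowest for Inhbb, Fst, Fgf21 and Gdf15 and the highest for Inhba and Inhbc. High Inhbe thus stood beside the WT-nearest levels of Fst and Gdf15 in IRF8-cKO-88, and beside very low levels of both in IRF8-cKO-71.

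Of the 5 genes whose profile over the 6 libraries was most like that of Inhbe, 3 were in the list of unfolded protein response genes. Likeness was the root mean square difference of log2 CPM, each gene centred on its own mean over the 6 libraries, among 10559 expressed protein-coding genes. The 5 nearest were Zfp324 (0.460), Hyou1 (0.577), Sel1l (0.593), Creld2 (0.662) and B3galt1 (0.665). These genes were picked for likeness to Inhbe on the same libraries, so a difference between the groups was largely built into the choice, and their values are a description. Zfp324, a zinc finger gene, was higher in IRF8-cKO (log2 fold change 3.16, SE 0.55). Hyou1 encodes a chaperone of the reticulum lumen, Sel1l a core part of the machinery that exports misfolded proteins for degradation, and Creld2 a secreted folding factor of the stress response. Hyou1 stood at 746 CPM in IRF8-cKO-71, 998 in IRF8-cKO-88 and 195 in IRF8-cKO-106, against 146 CPM in WT-14, 145 in WT-44 and 115 in WT-77 (log2 fold change 2.26, SE 0.52). Sel1l had a log2 fold change of 2.27 (SE 0.43). Like Inhbe, Hyou1 and Sel1l were highest in IRF8-cKO-88. Creld2 was highest in IRF8-cKO-71, at 904 CPM against 867 in IRF8-cKO-88. Its 95.5 CPM in IRF8-cKO-106 lay below WT-14 (122 CPM) and WT-44 (103 CPM). B3galt1 was highest in IRF8-cKO-88, but its 27.8 CPM in IRF8-cKO-106 lay below the 31.6 CPM of WT-14. Creld2 and B3galt1 thus overlapped between the groups, and neither passed the edgeR test (adjusted p = 0.0900 and 0.114). When IRF8-cKO-88 was left out, 0 of these 5 were among the 5 nearest, and without IRF8-cKO-71 or IRF8-cKO-106 3 of 5 were, Pdia4 joining in both cases.

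**Figure D4:**
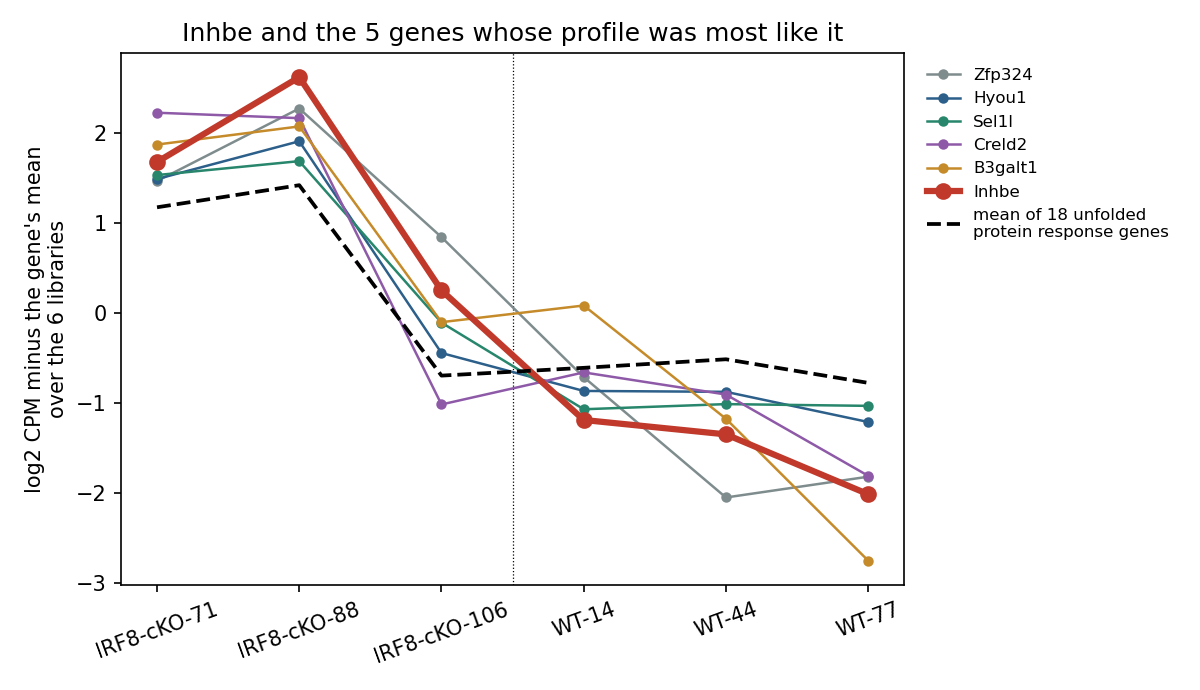
Log2 CPM minus each gene's mean over the 6 libraries for Inhbe (thick red), the 5 genes most like it, and the mean of 18 unfolded protein response genes (dashed); libraries are separate samples and lines only join the points of a gene. All profiles are high in IRF8-cKO-71 as well as IRF8-cKO-88, and Inhbe at 0.25 lies above the unfolded protein response mean of -0.70 in IRF8-cKO-106.

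Genes of the unfolded protein response stood high in 2 of the 3 IRF8-cKO libraries. Of 18 tested genes of its XBP1 and ATF6 arms, 1 rose (Sel1l, edgeR adjusted p = 0.0446), 0 fell and 17 did not pass, with log2 fold changes above 0 in 17 and a median of 1.49, where the median over all tested genes was 0.03. Centred on each gene, the log2 CPM of the list averaged 1.17 in IRF8-cKO-71, 1.42 in IRF8-cKO-88 and -0.70 in IRF8-cKO-106, against -0.61 in WT-14, -0.51 in WT-44 and -0.78 in WT-77. IRF8-cKO-106 lay among the WT libraries on this list, although its Inhbe was 38.5 CPM, above all WT values. Kupffer cell and macrophage markers ran in the same direction over the libraries, with averages on this scale of 0.56, 0.46 and -0.35 in the IRF8-cKO libraries in that order, against -0.12, -0.23 and -0.32 in the WT libraries, and their summed level was 184 to 432 CPM in IRF8-cKO and 210 to 231 CPM in WT livers. Their part in the level of Inhbe or of this list was not tested. Pdia4, a disulfide isomerase of the reticulum, stood at 1519, 1063 and 145 CPM in the IRF8-cKO libraries in the same order, against 87.6, 120 and 96.3 CPM in the WT libraries (log2 fold change 3.16, SE 0.72; edgeR adjusted p = 0.0627). Hspa5, the main lumenal chaperone BiP, was at 1.11 (SE 0.52, adjusted p = 0.221), and Xbp1 itself at -0.45 (SE 0.38, adjusted p = 0.488). DESeq2 called 10 of the list's genes, against 11.3% of all genes, and the test without the low-count filter 12, against 7.15%. With library totals as the scale 3 were called, where 0.624% of all tested genes passed. Without IRF8-cKO-106, 8 of the list's genes were called, against 0.148% of all genes, and 0 were called by limma-voom, which called 0.845% of all genes, or without IRF8-cKO-71, WT-14, WT-44 or WT-77. No promoter window was at hand for Hyou1, so that gene was not searched for motifs. Creld2 alone of Sel1l, Creld2, B3galt1 and Zfp324 held the ER stress element, CCAAT and CCACG with 9 free bases between them (0.119% of windows), in its promoter window. It lies on the opposite strand within chr15:88819515-88819544, shown on the plus strand with the fixed letters in capitals. The Inhbe window had no match.
Creld2: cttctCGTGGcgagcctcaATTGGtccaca

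The integrated stress response, whose factors ATF4 and CHOP are known to act on Inhbe and Fgf21, had calls in both directions. Of 27 tested genes 1 rose, 1 fell and 25 did not pass, with a median of -0.29. Over all tested genes 0.449% rose and 0.937% fell. DESeq2 called 6 of the list, against 11.3% of all genes, and the test without the low-count filter 5, against 7.15%. Atf5, a stress-induced relative of ATF4, rose with 585 CPM in IRF8-cKO-71, 228 in IRF8-cKO-88 and 150 in IRF8-cKO-106, against 63.9 CPM in WT-14, 66.3 in WT-44 and 67.4 in WT-77 (log2 fold change 2.28, SE 0.47; edgeR adjusted p = 0.0495). Its log2 fold change was 1.53 without IRF8-cKO-71, and its call ended with median-of-ratios or upper-quartile factors, in limma-voom and without robust shrinkage (adjusted p 0.0510 to 0.0533). Ppp1r15a, which encodes the phosphatase subunit GADD34 that ends the response, fell, with 18.96 ± 6.63 CPM in IRF8-cKO and 85.7 ± 30.7 CPM in WT livers (log2 fold change -2.17, SE 0.38; edgeR adjusted p = 0.0408), a call that ended with library totals as the scale (adjusted p = 0.0599). Neither Atf4 (-0.62, SE 0.39, adjusted p = 0.344), Trib3 (-0.79, SE 0.56, adjusted p = 0.397) nor Asns (0.19, SE 0.35, adjusted p = 0.764), all textbook ATF4 outputs apart from Atf4 itself, passed in the edgeR test.

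Receptors through which these ligands would act in liver showed no call in the edgeR test. Of 9 tested activin and TGF-beta receptor genes 0 passed, with a median log2 fold change of 0.10. Acvr2a stood at 27.9 ± 9.48 CPM in IRF8-cKO and 26.0 ± 7.02 CPM in WT livers, and Acvr1b at 26.2 ± 8.24 CPM in IRF8-cKO and 22.9 ± 2.67 CPM in WT livers (SD, n = 3 each). Acvr2b had the lowest p of the list, at -1.09 (SE 0.45, edgeR adjusted p = 0.177). Acvr1c, the type I receptor ALK7 of fat, had 0 reads in 5 libraries and 1 read in WT-44. Of 15 SMAD transducers and inhibitors 0 passed. Tgif1, a SMAD co-repressor, stood at -2.18 (SE 0.51, edgeR adjusted p = 0.0622), and the feedback inhibitor Smad7 at -0.02 (SE 0.33, edgeR adjusted p = 0.972; 0.22 with library totals as the scale). DESeq2 called 2 of this list, Smad1 and Tgif1, against 11.3% of all genes, and the test without the low-count filter 3, against 7.15%. Of 13 tested SMAD target genes 0 passed, with a median of -0.35 and the lowest p for the AP-1 gene Junb (-2.23, SE 0.48, edgeR adjusted p = 0.0531). DESeq2 called 3 of the SMAD target list, Id1, Hamp and Junb, and the test without the low-count filter 4. The hepcidin gene Hamp, a BMP and SMAD target that controls iron, stood at 291 CPM in IRF8-cKO-71, 280 in IRF8-cKO-88 and 153 in IRF8-cKO-106, against 256 CPM in WT-14, 1910 in WT-44 and 1259 in WT-77 (log2 fold change -2.24, SE 0.64; edgeR adjusted p = 0.0910). Like Gdf15, Hamp was far lower in WT-14 than in the other WT libraries.

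For the hormones, Fgfr1 stood at 10.05 ± 3.51 CPM in IRF8-cKO and 28.0 ± 9.62 CPM in WT livers (log2 fold change -1.48, SE 0.36; edgeR adjusted p = 0.0665). Klb, encoding beta-klotho, was at 0.64 (SE 0.72, adjusted p = 0.612), and Fgfr4, the main hepatocyte FGF receptor, had 16.2 ± 9.62 CPM in IRF8-cKO and 16.2 ± 2.85 CPM in WT livers. Gfral had 0 reads in all 6 libraries. Of 6 tested receptor-list genes 0 passed in the edgeR test. DESeq2 called 1 of the list, Fgfr1, against 11.3% of all genes. The test without the low-count filter called 2, Fgfr1 and Fgf1, against 7.15%. CPM of Fgfr1 lay lower in IRF8-cKO without overlap, as did 14.5% of all tested genes.

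Other ligands and antagonists of the superfamily gave a single call in the edgeR test. DESeq2 called 3 ligands and 2 antagonists, where it called 11.3% of all genes. Tgfb2, a TGF-beta isoform gene, fell with 0.308 CPM in IRF8-cKO-71, 1.60 in IRF8-cKO-88 and 1.11 in IRF8-cKO-106, against 6.37 CPM in WT-14, 8.29 in WT-44 and 7.37 in WT-77 (log2 fold change -2.85, SE 0.54; edgeR adjusted p = 0.0446). It was the 1 of 13 tested ligands that passed, and with library totals as the scale its adjusted p was 0.0599. Gdf2, which encodes BMP9 of hepatic stellate cells, did not overlap between the groups, at 26.2 ± 10.2 CPM in IRF8-cKO and 8.90 ± 1.66 CPM in WT livers (SD, n = 3 each; edgeR adjusted p = 0.0531). Of 11 tested antagonists, Fst among them, 0 passed and 10 had negative values, with a median of -0.81. The lowest p among antagonists was that of Wfikkn1, a follistatin-domain protein gene of few reads (-3.44, SE 0.79, adjusted p = 0.0601), and Fstl1 stood at -0.60 (SE 0.52, adjusted p = 0.498). Of 6 convertase genes, whose products cut precursors such as those of activins, 0 passed, with a median log2 fold change of -0.14.

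Other regulators and hormones of the same tissue were mixed. Of 34 genes of the PPAR alpha list, which holds the nuclear receptor that switches on Fgf21 in fasting, 1 rose and 2 fell, with a median of 0.55. Log2 fold changes were above 0 in 25 of the 34. CPM lay higher without overlap for 12 and lower for 2, against 14.4% and 14.5% of all tested genes. DESeq2 called 9 of the list and the test without the low-count filter 12, against 11.3% and 7.15% of all genes. Ehhadh, a peroxisomal oxidation enzyme gene, rose (2.04, SE 0.40), and the lipid carrier gene Fabp1 (-1.99, SE 0.35) and the lipase inhibitor gene Angptl4 (-1.95, SE 0.37) fell in the edgeR test, with adjusted p of 0.0446, 0.0408 and 0.0446. Ppara was at -0.01 (SE 0.37, adjusted p = 0.985; 0.25 with library totals as the scale). Of 20 p53 target genes, a class to which Gdf15 also belongs, 2 fell, Trp53inp1 (-2.20, SE 0.45) and the stress kinase gene Plk3 (-1.61, SE 0.33), both with an edgeR adjusted p of 0.0495, and 18 did not pass. Neither was called with median-of-ratios factors, library totals, limma-voom or no robust shrinkage (adjusted p 0.0505 to 0.0707). Of 19 insulin and carbohydrate responsive genes 0 passed, with Srebf1, the lipogenic regulator, at -1.42 (SE 0.39, adjusted p = 0.0860) and Mlxipl, encoding ChREBP, at -0.24 (SE 0.34, adjusted p = 0.693). Among 27 tested other hepatokines Angptl4 alone passed in the edgeR test, and the median was -0.49. DESeq2 called 4 of the p53 list, 4 of the insulin list and 5 of the hepatokine list, where it called 11.3% of all genes. With library totals as the scale Angptl4 was not called (adjusted p = 0.0549). Without IRF8-cKO-106, WT-44 or WT-77, 0 genes of the integrated stress response, other ligand, PPAR alpha, p53 and other hepatokine lists were called.

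**Figure D5:**
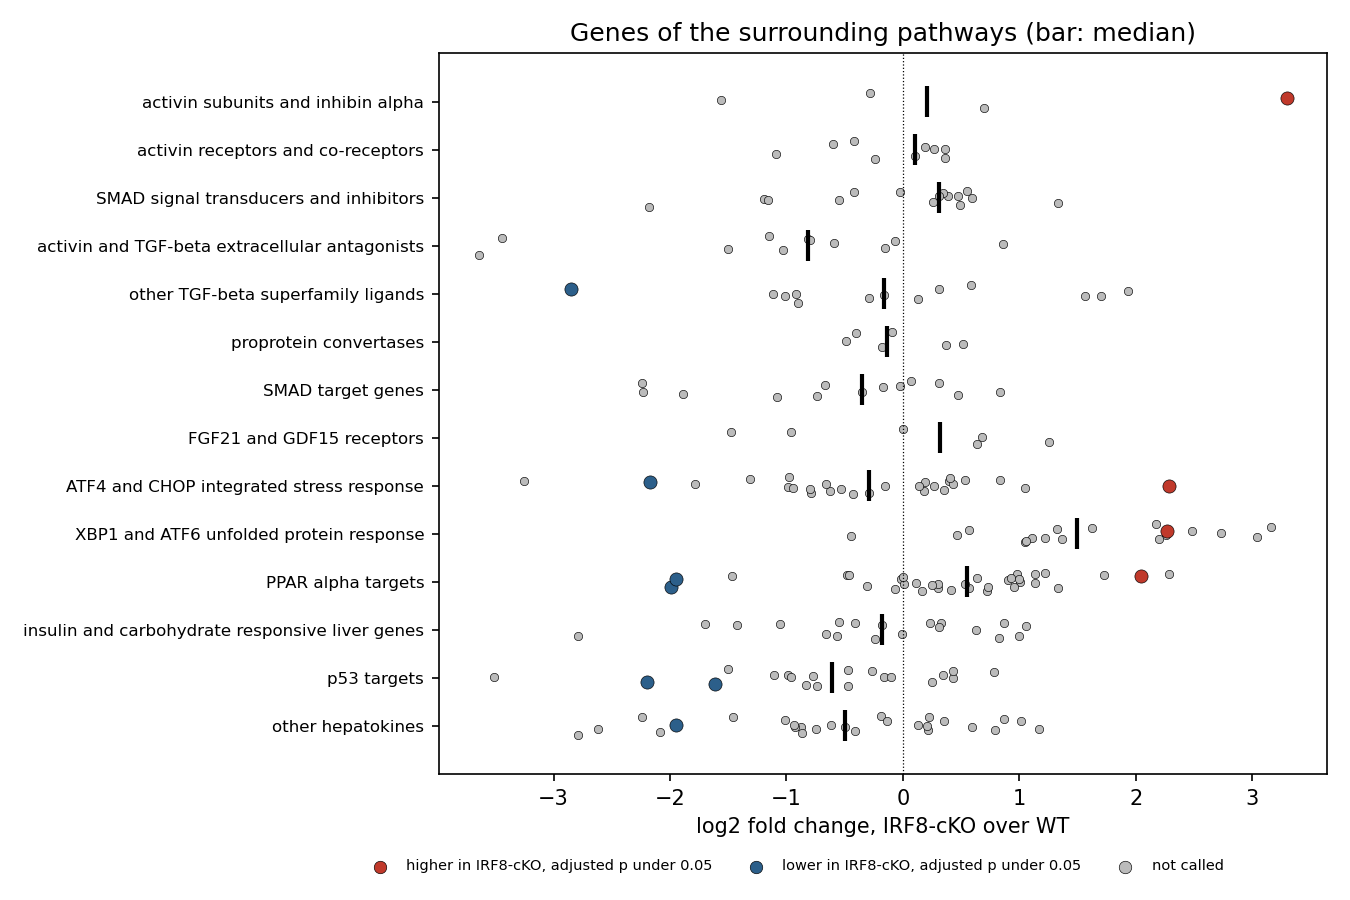
Log2 fold change (IRF8-cKO over WT) of the tested genes of each list, 1 point a gene, with red for higher and blue for lower at an edgeR adjusted p under 0.05 and a bar at each median. The median of the unfolded protein response list is 1.49 and that of the integrated stress response list -0.29.

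The profiles most like those of Fst and Gdf15 were likewise highest in WT-44 and WT-77. The genes named here as nearest were picked for likeness on these same libraries, so shared highs were built into the choice. By the same measure the 3 genes nearest to Fst were Btg2 (0.329), Pde4b (0.383) and Nr4a1 (0.409), and those nearest to Gdf15 were Fam71f2 (0.521), Egr1 (0.548) and Gapdh (0.788). Gapdh stood at only 3.39 to 15.1 CPM in IRF8-cKO and 13.9 to 318 CPM in WT livers. How multiply mapped reads were treated is not given. Egr1, which like Btg2 and Nr4a1 is known as an early response gene, stood at 14.4 CPM in IRF8-cKO-71, 156 in IRF8-cKO-88 and 74.8 in IRF8-cKO-106, against 187 CPM in WT-14, 893 in WT-44 and 1083 in WT-77. The genes nearest to Inhbb were Emb (0.126), Crispld2 (0.133) and Cd93 (0.144), the last a surface protein gene of endothelial cells. Endothelial markers had a median log2 fold change near 0 (0.14, with 0 of 12 passing, and summed levels of 205 to 272 CPM in IRF8-cKO and 215 to 308 CPM in WT livers). Those nearest to Inhbc were Kynu (0.175), Isyna1 (0.199) and Zfp467 (0.203), with IRF8-cKO-71 standing high in each. Rnf144b (0.219), Rsph3b (0.245) and Rtkn (0.273) were nearest to Inhba, and Tmem86a (0.402), Ripk3 (0.448) and Cks1b (0.539) to Fgf21. Of the 11 tested neutrophil markers, S100a8, S100a9, Ltf, Retnlg and Ngp fell, and 10 of 11 lay lower in IRF8-cKO without overlap, where 14.5% of all tested genes did. The list summed to 786 to 4661 CPM in IRF8-cKO and 1255 to 3559 CPM in WT livers, most of it Lcn2, which hepatocytes also make. Of the 15 markers listed, Camp, Elane, Ly6g and Mpo had too few reads to test, with Mpo, a marker of precursors, at 0 in 4 libraries. Their part in the levels of Inhbb, Fst and Gdf15 was not tested.

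Around Fgf21 several neighbours were lower. Of 11 tested genes within 100000 bases of Fgf21, 5 passed the edgeR test and all 5 fell, where 0.937% of all tested genes fell. These were Dbp, a clock output factor gene (-3.55, SE 0.45, adjusted p = 0.0243), the fucosyltransferase genes Sec1 and Fut2, the endothelial gene Rasip1 and Ppp1r15a. Sec1 and Fut2 are related copies that may share reads. Without IRF8-cKO-106, WT-44 or WT-77, 0 of the 11 were called. With library totals as the scale 2 were, against 0.624% of all tested genes. Near Gdf15 1 of 9 tested genes fell, the AP-1 gene Jund (-1.71, SE 0.33, adjusted p = 0.0446), and near the other genes the sole call among neighbours was that of Inhbe beside Inhbc.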

How the data were processed

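Per the labels' protocols, Trizol RNA of the ischemic lobe was made into NEBNext Ultra libraries. Tools listed in the submitters' processing notes are HISAT2 2.0.5 and featureCounts 1.5.0-p3, with mm10 as the build. The authors deposited raw read counts per gene. Strand setting, annotation release and treatment of multiply mapped reads were not given in the sources used here. Count columns were tied to samples by title.

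Genes were kept by filterByExpr (minimum count 10, total 15), scaled by TMM and compared with edgeR 4.0.16 in R 4.3.3 (robust quasi-likelihood fit, group only, two-sided, Benjamini-Hochberg over 13134 genes, threshold 0.05). Standard errors were taken as log2 fold change over the root of F. For profiles, 2 was the prior count of log2 CPM, and a gene needed a mean log2 CPM of at least 1. Alternatives used DESeq2 1.42.0, limma 3.58.1, other scalings and filters, and libraries left out. No 2 libraries were copies: the smallest chi-square over its degrees of freedom within a group was 68.7. The fit was also run on counts simulated from its own dispersions, a run that cannot show how far single libraries sway the calls.

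The 8 genes and the lists were chosen with earlier results of these data known. The naming rule takes the 8 genes, a fixed set of receptors and regulators, the called or lowest-p genes of each list, the most alike genes and the neighbours of Inhbe. The genes whose windows were searched for the ER stress element were chosen after their profiles were seen.
1 gene that the naming rule takes is not reported here.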

Additional observations from a re-analysis of the deposited data

How the results depend on the processing

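No paired analysis was possible because the groups share no replicate number. Of 13134 genes tested, 182 passed (59 higher and 123 lower in IRF8-cKO). With library totals alone, which move the median over all genes to 0.25 from 0.03 on the log2 scale, 82 passed (39 higher, 43 lower). Without a low-count filter it was 1723 (817 higher, 906 lower) with 2 of the 8 genes, in DESeq2 1423 (613 higher, 810 lower) with 4, and in limma-voom 111 (23 higher). With 1 library left out, 0 to 1205 genes passed (0 to 575 higher, 0 to 630 lower), with 0 to 4 of the 7 tested genes among them, and Inhbe lay between 2.63 and 3.73. The test called most genes without IRF8-cKO-88 and fewest without WT-77, where the smallest adjusted p was 0.152. The cause was not tested. The other scalings and filters, the fit without robust shrinkage and the removal of the 10 genes with most reads gave 153 to 202 calls and kept the call of Inhbe.

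Several log2 fold changes near 0 turned sign. With 1 library left out, values ran from -0.56 to 1.08 for Inhbc, -0.89 to 0.14 for Inhba, -0.0841 to 0.38 for Acvr1b, -0.0646 to 0.37 for Acvr2a, -0.19 to 0.14 for Smad7, -0.00808 to 1.14 for Klb, -0.50 to 0.37 for Fgfr4, -0.55 to 0.82 for Ddit3, -0.27 to 0.31 for Ppara and -0.53 to 0.0796 for Mlxipl. Fgfr4 was at -0.00392 with median-of-ratios factors, -0.00414 in DESeq2 and -0.17 in limma-voom. With library totals Smad7 was at 0.22 and Ppara at 0.25, and Ppara was at 0.00976 without the filter. Fstl3, too low for the test, stood at -1.33 when no filter was used and was not called. At 13 reads or fewer a library, it allows no statement on a difference.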
